A study of Mus musculus with 4 samples.

Results

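The genes Zfp352, Tcstv1, Tcstv3, Sp110 and Zscan4c mark the 2-cell-like state of mouse embryonic stem (ES) cells, and their RNA levels were compared in cells depleted of Zfp322a by RNA interference and in control cells. These 5 genes were selected on the values of this same contrast, as genes that were higher after depletion, so their changes are given as a description without a test. Of 45037 probe sets on the arrays, 7 carried the symbol of 1 of these genes alone and 1 carried Zscan4c together with other symbols. Own probe sets existed for 4 of the 5 genes, out of 18193 genes with at least 1 probe set of their own.

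The cells were E14 cells, a mouse ES cell line, grown in serum with leukaemia inhibitory factor (LIF). Control RNAi cells received the pSuper.puro vector according to the labels, whereas the array methods of the study speak of a control short hairpin RNA. The Zfp322a RNAi cells received a short hairpin RNA against Zfp322a, and both were made by lipofection and puromycin selection, which the labels put at 3 days. In the methods of the study the selection before array hybridization is a day longer. There were 2 arrays in each of the 2 groups, and the sources do not say whether they came from separate cultures, so that all p-values measure a spread between arrays that can be technical. Values are RMA levels on the log2 scale, so a difference of 1 is a doubling.

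In ES cell cultures a small and changing fraction of cells turns on genes of the embryo at the 2-cell stage, when the zygotic genome is first transcribed. In these cells the homeobox factor Dux activates transcription from long terminal repeats of the endogenous retrovirus MERVL and from genes close to such repeats. Zscan4 proteins, which are zinc finger proteins with a SCAN domain, and the Tcstv proteins are linked to telomere lengthening in mouse ES cells. The arrays measured RNA of whole cultures, so a larger number of 2-cell-like cells and more RNA in each such cell cannot be told apart.

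Promoter sequences are shown for 3 of the 5 genes, since the promoter set used here held none for Tcstv1 and Tcstv3. The upstream letters differ between the genes and show which of them recur in other promoters. All come from RefSeq with the GRCm38.p6 build and run from 250 bases before to 50 bases after an annotated start. Capitals mark the word CCTTTAATC on either strand (GATTAAAGG where it lies on the other strand) and the TATA box core TATAA on the strand of the gene. The Zfp352 window lies at chr4:90218570-90218869 on the plus strand, the Sp110 window of the upstream of its start sites at chr1:85603842-85604141 on the minus strand, and the Gm4340 window, shown for comparison with Sp110, at chr10:104193792-104194091 on the plus strand. The Zscan4c window lies at chr7:11005495-11005794 on the plus strand and that of its copy Zscan4d at chr7:11166099-11166398 on the minus strand.
Zfp352: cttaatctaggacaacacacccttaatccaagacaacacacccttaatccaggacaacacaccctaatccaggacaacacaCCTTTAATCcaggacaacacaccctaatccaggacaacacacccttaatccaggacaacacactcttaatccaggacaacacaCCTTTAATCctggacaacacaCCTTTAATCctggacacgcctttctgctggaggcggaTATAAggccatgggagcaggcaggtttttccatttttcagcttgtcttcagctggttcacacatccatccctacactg
Sp110: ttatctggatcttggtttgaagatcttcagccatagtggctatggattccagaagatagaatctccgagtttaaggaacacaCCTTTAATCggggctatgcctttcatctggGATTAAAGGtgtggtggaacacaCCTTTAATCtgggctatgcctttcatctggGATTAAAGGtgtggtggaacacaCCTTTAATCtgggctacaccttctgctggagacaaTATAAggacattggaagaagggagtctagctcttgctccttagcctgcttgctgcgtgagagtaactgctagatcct
Gm4340: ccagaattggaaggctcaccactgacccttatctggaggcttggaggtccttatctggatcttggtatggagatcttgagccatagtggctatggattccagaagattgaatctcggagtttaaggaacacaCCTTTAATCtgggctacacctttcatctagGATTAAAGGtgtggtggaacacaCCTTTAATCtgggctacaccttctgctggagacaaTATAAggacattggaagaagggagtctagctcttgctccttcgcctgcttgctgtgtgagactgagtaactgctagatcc
Zscan4c: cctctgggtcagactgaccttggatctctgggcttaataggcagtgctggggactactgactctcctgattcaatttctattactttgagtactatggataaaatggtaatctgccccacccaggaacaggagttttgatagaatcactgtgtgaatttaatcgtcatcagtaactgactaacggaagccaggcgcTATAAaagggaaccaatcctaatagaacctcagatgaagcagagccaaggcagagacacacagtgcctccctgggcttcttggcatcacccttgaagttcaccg
Zscan4d: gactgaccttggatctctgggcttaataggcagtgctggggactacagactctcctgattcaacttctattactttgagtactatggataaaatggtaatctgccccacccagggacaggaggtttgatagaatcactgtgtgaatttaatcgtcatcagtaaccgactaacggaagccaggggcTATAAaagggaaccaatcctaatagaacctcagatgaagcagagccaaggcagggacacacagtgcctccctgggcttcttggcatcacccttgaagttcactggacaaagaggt

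The word CCTTTAATC was picked after the sequences had been seen. It occurred 3 times in the Zfp352 window, at positions -169, -86 and -65 from the start site, each within a run of similar tandem units. In the Sp110 window it occurred 5 times, at -168, -115 and -62 on the strand of the gene and at -138 and -85 on the other strand. Over all 32851 promoter windows of this length 0.542% held the word on either strand and 0.0517%, or 17 windows, held 3 or more copies. A TATAA lay at -28 in the Zfp352 window and at -27 in the Sp110 window, and 3.52% of all windows had TATAA between 40 and 20 bases before the start on the strand of the gene. In the Zscan4c and Zscan4d windows it lay outside that range, at -54 and -65, while the copies Zscan4b and Zscan4f had it at -31. The window of the downstream Sp110 start held neither word. The probe sets were not assigned to start sites, and a match of letters does not show that a factor binds.

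The Sp110 window was not unique. It shared at least 20 different stretches of 12 letters with the windows of 30 other genes, a limit set after the sequences had been seen. The Gm4340 window was 77.9% identical to it over 303 aligned columns, with 3 copies of CCTTTAATC and a TATAA at -30. A local alignment of the Sp110 window with the Zfp352 window was 79.1% identical over 67 columns. The Zfp352 window shared at least 20 such stretches with 0 other genes. The Zscan4c window did so with 3 genes, Zscan4b, Zscan4d and Zscan4f, and was 95.3%, 97.6% and 99.3% identical to their windows over the aligned columns. The word TGCACAC, reported as a Zscan4 binding word, was found on either strand in 0 windows of the 3 genes and in 4.4% of all windows. The word TGATTNAATCA, a form of the Dux binding word, was found in 0 of their windows and in 0.0335% of all windows. The words were searched separately, and hits of different words did not overlap in the windows shown.

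Zfp352, a zinc finger gene transcribed in the cleaving embryo, lies on chromosome 4. Its probe set 1425879_at read 8.83 and 8.94 on control arrays, against 9.72 and 9.67 on the Zfp322a RNAi arrays. The second probe set, 1425880_x_at, read 8.49 and 8.62 on the control arrays and 9.44 and 9.43 after depletion. Both depleted arrays lay above both control arrays for either probe set, and the gap between the closest arrays was 0.73 and 0.81 on the log2 scale. The change was 0.81 ± 0.08 (SE, 2 arrays a group), or 1.75-fold, for 1425879_at and 0.88 ± 0.08, or 1.84-fold, for 1425880_x_at. Of all probe sets on the arrays, 2.13% had a larger rise than the former and 1.71% a larger rise than the latter.

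Tcstv1 and Tcstv3 encode small proteins of the 2-cell embryo and lie in 1 cluster on chromosome 13. They belong to a family of near-identical copies, so that RNA of one copy can add to the probe set of another. Tcstv3 (1451852_at) read 7.52 and 7.53 on the control arrays and 8.56 and 8.43 after depletion, without overlap. Its change of 0.97 ± 0.08, or 1.96-fold, was the largest among the 8 probe sets, and 1.26% of all probe sets had a larger one. Tcstv1 (1420729_at) read 8.43 and 8.30 on the control arrays and 9.04 and 8.76 after depletion. Here the closest arrays were 0.33 apart and the arrays of each group were farther from each other than those of Tcstv3. Its change was 0.535 ± 0.12, or 1.45-fold, and was 0.395 without Zfp322a RNAi replicate 1 and 0.675 without Zfp322a RNAi replicate 2.

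Sp110 encodes a nuclear body protein of the Sp100 family whose transcription is raised by interferon. The gene lies on chromosome 1, in a region with further Sp100-related copies. Its 3 probe sets gave different readings. Probe set 1456493_at read 7.32 and 7.35 on the control arrays and 8.21 and 8.24 after depletion, a change of 0.89 ± 0.08 or 1.85-fold with a gap of 0.86 between the closest arrays. Probe set 1429563_x_at read 6.84 and 6.76 on the control arrays and 6.74 and 6.83 after depletion, so that the groups overlapped. Probe set 1429562_at read 4.79 and 4.83 on the control arrays and 4.76 and 4.55 after depletion, with both depleted arrays below both control arrays. Averaged over the 3 probe sets the change of Sp110 was 0.24, so that the higher level described for this gene rests on 1 probe set. Which transcripts or copies each probe set detects was not tested.

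Zscan4c lies on chromosome 7 and had 0 probe sets of its own. The 1 probe set that included it, 1457033_at, was annotated to Zscan4a, Zscan4c, Zscan4d, Zscan4f and a pair of further loci, and it reports on the family, not on Zscan4c. It read 12.79 and 12.82 on the control arrays and 13.36 and 13.38 after depletion. The arrays within a group were 0.03 and 0.02 apart and the gap between the groups was 0.54. The change was 0.565 ± 0.08, or 1.48-fold, and 4.92% of all probe sets had a larger rise.

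**Figure D1:**
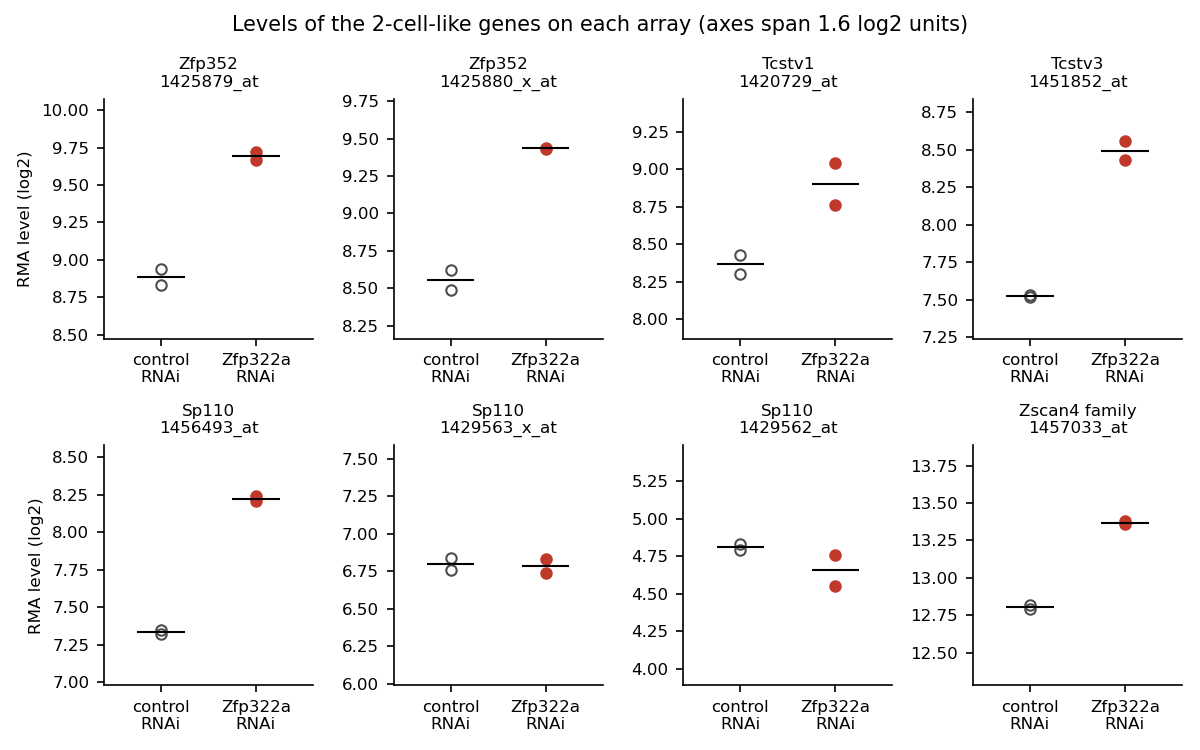
RMA level (log2, vertical axis) of each of the 8 probe sets on the 2 control RNAi arrays (open circles) and the 2 Zfp322a RNAi arrays (filled circles), with group means as lines and axes of equal span. In 6 panels both depleted arrays lie above both control arrays, while Sp110 1429563_x_at overlaps and Sp110 1429562_at is lower after depletion.

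Both Zfp322a RNAi arrays were above both control arrays for 6 of the 8 probe sets, an ordering that 25.1% of all probe sets had. Since the genes were selected on this contrast, nothing is read from that count. At the 1.5-fold rule of the study, 4 of the 8 probe sets were higher after depletion (both of Zfp352, Tcstv3 and Sp110 1456493_at), against 4.67% of all probe sets. Zscan4 1457033_at at 1.48-fold and Tcstv1 at 1.45-fold were just under that fold. The smallest of the 4 above it was Zfp352 1425879_at at 1.75-fold.

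**Figure D2:**
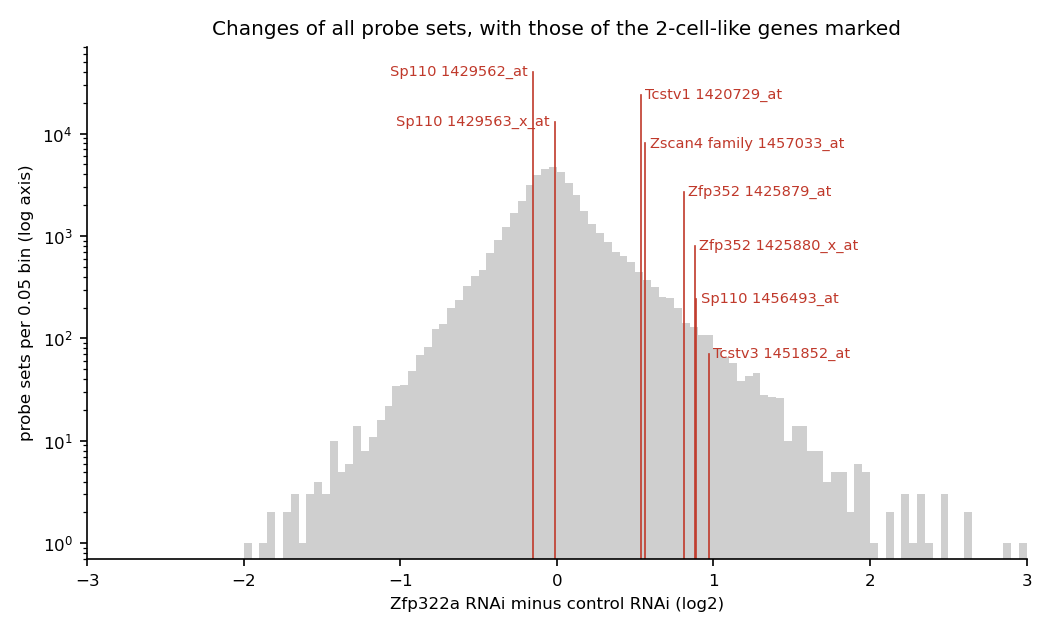
Number of probe sets (vertical log axis) by log2 difference between Zfp322a RNAi and control RNAi (horizontal axis, in bins) for all 45037 probe sets, with lines at the 8 probe sets of the 2-cell-like genes. The 6 with a higher level after depletion lie between 0.535 and 0.97, inside the right shoulder of the distribution, and the other 2 Sp110 probe sets lie near 0.

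Zfp322a itself was read as a check of the labels. It read 8.75 and 8.84 on the control arrays and 7.53 and 7.13 after depletion with probe set 1439035_at, and fell by 1.465 ± 0.14 (limma, adjusted p = 0.0022), and its probe set 1452374_at fell by 1.87 (limma, adjusted p = 9.35e-04). A test with limma over all 45037 probe sets called 4774 probe sets, or 10.6%, higher and 4266 lower after depletion at an adjusted p under 0.05. With any 1 of the 4 arrays left out 0 passed, while 10572 to 11509 had an unadjusted p under 0.05. Array medians were 6.07 to 6.11 and correlations were 0.998 within either group and 0.989 to 0.990 between groups. Among 9 ES cell markers, Pou5f1, Nanog, Sox2 and Zfp42 had levels of 12.50 to 12.93 on every array and limma adjusted p-values of 0.662 to 0.943, while Esrrb, Tdgf1 and Utf1 fell by 0.41, 0.59 and 0.65. By quantitative PCR and at the protein level the study reports reduced Pou5f1, Nanog, Sox2 and Zfp42 in E14 cells after Zfp322a RNAi. Why the arrays differ from those measures was not tested. Of 10 fibroblast and feeder cell markers, whose levels were 3.75 to 7.42, Loxl1 rose by 0.535 (0.15 over all its probe sets, which did not pass), Fbln2 fell by 0.52 (-0.26 over all its probe sets), Thy1 fell by 0.56 and 7 did not pass the test. Their mean level was 5.33 and 5.26 on the control arrays, against 5.16 and 5.22 after depletion. The part of such cells in the results was not tested.

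Other genes of the 2-cell-like state were measured beside the 5. Of 88 such genes named beyond the 5, 43 had a probe set of their own, and by the brightest probe set of each 17 rose, 1 fell and 25 did not pass limma's test. That is 39.5% higher, against 12.2% of all genes with a probe set (11.5% of all genes were lower), and the median change was 0.12 against -0.04 over all genes. The list was drawn up with earlier results of these data known and is not independent evidence of its direction. With any 1 array left out or with the replicate number as a block 0 of the 43 passed, and with the block the 17 had adjusted p-values of 0.0513 to 0.0898.

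**Figure D3:**
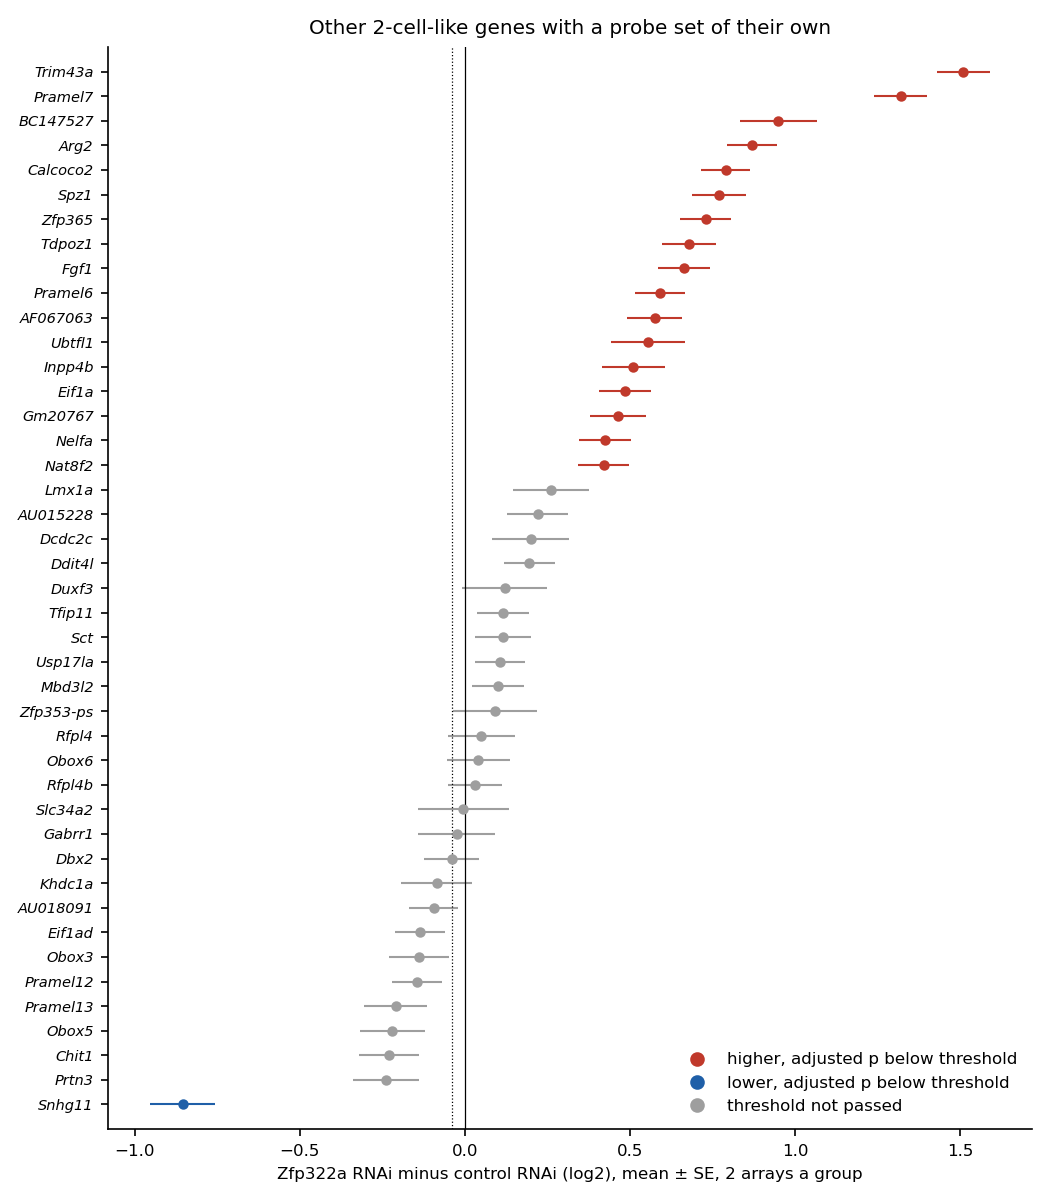
Log2 difference between Zfp322a RNAi and control RNAi (horizontal axis) with its SE for the 43 other 2-cell-like genes that have a probe set of their own, 2 arrays a group, the dotted line at the median of all genes, -0.04. The 17 genes that rose reach from Nat8f2 at 0.42 to Trim43a at 1.51, and Snhg11 alone fell.

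The largest rise was that of Trim43a, a tripartite motif gene transcribed before implantation. It read 6.79 and 6.71 on the control arrays and 8.30 and 8.22 after depletion, a change of 1.51 ± 0.08 or 2.85-fold (limma, adjusted p = 0.00103). Pramel7, which in the mouse supports the naive pluripotent state, read 7.68 and 7.6 against 8.99 and 8.93, a change of 1.32 (limma, adjusted p = 0.00105). Its other probe set changed by 0.63. BC147527 changed by 0.95 (limma, adjusted p = 0.00413) from a low level of 4.96 and 4.82 to 5.98 and 5.70. Arg2, a mitochondrial arginase, changed by 0.87 on its brightest probe set and by 0.825 on the other. Snhg11, a long non-coding RNA, read 8.4 and 8.48 on the control arrays and 7.69 and 7.48 after depletion and fell by 0.855 (limma, adjusted p = 0.00348).

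Some of these calls or their sizes depended on the probe set, and Pramel6, Nat8f2, Eif1a, Inpp4b, Fgf1 and Zfp365 are named here for this reason alone. Eif1a rose by 0.485 on 1424343_a_at and differed by 0.015 on 1424344_s_at, which did not pass. Inpp4b rose by 0.51 on 1457359_at and differed by 0.085 on 1441416_at, which did not pass. Fgf1 rose by 0.665 on 1450869_at and by 0.325 on 1423136_at, and differed by 0.085 on 1441042_at, which did not pass. Pramel6 rose by 0.59 on 1456270_s_at and differed by 0.115 on its other probe set, which did not pass, and Nat8f2 rose by 0.42 on its brightest probe set and differed by 0.13 over all its probe sets together. Zfp365 rose by 0.73 on its brightest probe set and by 0.44 over all its probe sets together, which passed (limma, adjusted p = 0.00889).

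Values for the multicopy gene families of the state are given in turn. Zscan4a, Zscan4b, Zscan4d, Zscan4e and Zscan4f had 0 probe sets of their own. The probe set 1457033_at described above was annotated to Zscan4a, Zscan4d and Zscan4f among them, but not to Zscan4b or Zscan4e. Tdpoz1, of the TD and POZ domain family of the early embryo, read 5.64 and 5.66 on the control arrays and 6.27 and 6.39 after depletion, a change of 0.68 ± 0.08 (limma, adjusted p = 0.00399). Its promoter window held CCTTTAATC once. The deubiquitinase gene Usp17la read 11.56 and 11.58 on the control arrays and 11.65 and 11.70 after depletion, a difference of 0.105 (limma, adjusted p = 0.404).

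Duxf3, of the Dux cluster, read 6.62 and 6.66 on the control arrays and 6.94 and 6.58 after depletion. The depleted arrays lay on either side of the control arrays, and the difference was 0.12 ± 0.13 (limma, adjusted p = 0.577). A further probe set, shared by Duxf3 with Gm9919 and Gm4981, differed by -0.07 (limma, adjusted p = 0.628). Both differences were smaller than their SE, so that a change of Duxf3 was not detectable with these arrays.

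Many 2-cell genes are multicopy and were read by probe sets shared among copies. Of 12 such probe sets, 6 rose, 0 fell and 6 did not pass limma's test, against 11.9% higher among all 932 probe sets with several symbols. The 12 include probe sets that hold Eif1a or Duxf3, which also had probe sets of their own and were counted above. The largest rise was that of Gm2022, Gm8300 and Gm5662, copies of the translation initiation factor gene Eif1a, which read 11.57 and 11.20 on the control arrays and 12.51 and 12.26 after depletion. The change was 1.0 ± 0.15, or 2-fold (limma, adjusted p = 0.0072). A second probe set of this kind, for Gm4027, BB287469 and Eif1a, changed by 0.695 (limma, adjusted p = 0.00566).

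Smaller rises were measured for the remaining 4. The probe set of Gm13102, Pramel5 and Pramel4 changed by 0.49, that of Usp17ld and Usp17lc by 0.375 (1422229_at), that of Duxbl1, Duxbl2 and Duxbl3 by 0.345 (1429099_at) and that of the Gm4340 copies by 0.285 (limma, adjusted p = 0.0229 to 0.0469). A second probe set of Gm13102 and Pramel4, 1438468_at, differed by 0.205 (limma, adjusted p = 0.118) and did not pass. For the Usp17l copies a second probe set, 1450547_x_at, differed by -0.015, and for the Duxbl copies the 2 further probe sets differed by 0.275 and 0.135 (limma, adjusted p = 0.228 and 0.498).

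These shared probe sets join up with the promoter sequences. Of the 16 genes with 3 or more copies of CCTTTAATC in a promoter window, 13 had 0 probe sets of their own, and 6 of these were copies on chromosome 10 read together by the Gm4340 probe set, 1443961_at. It read 13.57 and 13.62 on the control arrays and 13.89 and 13.87 after depletion, without overlap, the change of 0.285 given above. Beyond Zfp352 and Sp110, Gm33248 was the 1 gene of the 16 with a probe set of its own, and it differed by 0.16 (limma, adjusted p = 0.37). Of the 30 genes whose windows resembled that of Sp110, 6 had a probe set of their own and 0 of the 6 passed limma's test. The 6 copies read by the Gm4340 probe set were also among the 30, as were Pramel5, Pramel4 and Gm13102. The probe set that these last genes share, 1434584_a_at, rose by 0.49, while 1438468_at of Gm13102 and Pramel4 differed by 0.205 and did not pass. Of the genes with at least 1 copy of the word, 54 outside the 5 had a probe set of their own, and 8 of them, or 14.8%, rose and 2 fell, close to the 12.2% over all genes.

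**Figure D4:**
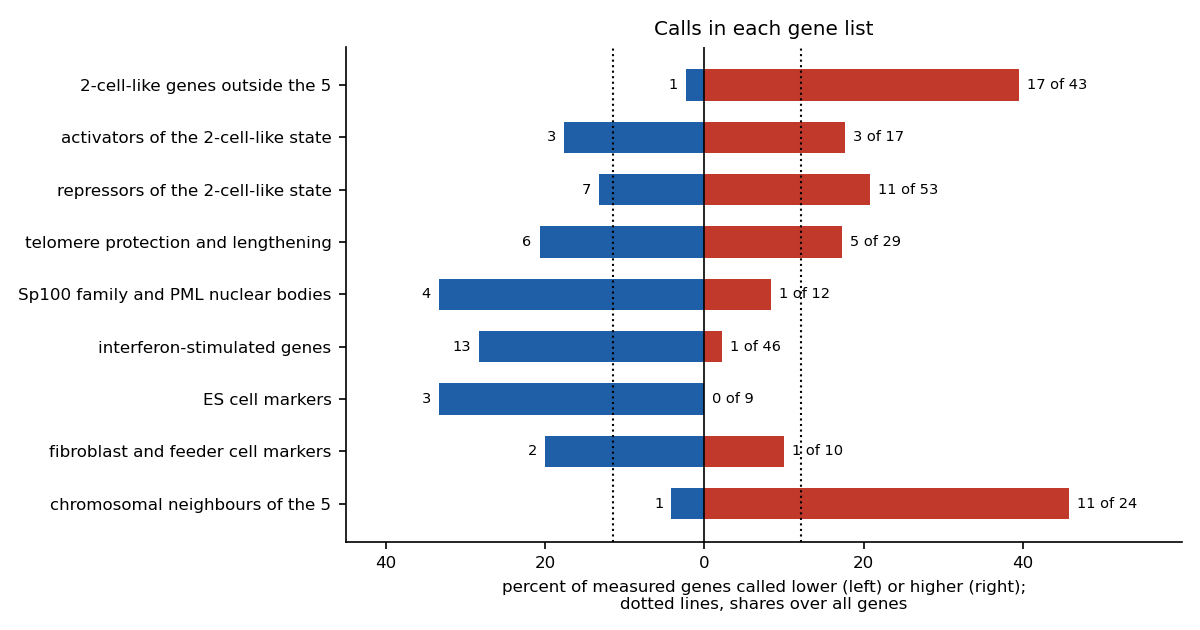
Percent of measured genes called higher (right) or lower (left) after Zfp322a RNAi in each gene list by limma at adjusted p under 0.05, with counts beside the bars and the shares over all genes (12.2% higher, 11.5% lower) as dotted lines. Of the other 2-cell-like genes 39.5% and of the chromosomal neighbours 45.8% were higher, and of the interferon-stimulated genes 28.3% were lower.

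Of 17 measured genes listed here as activators of the state 3 rose, or 17.6%, 3 fell, or 17.6%, and 11 did not pass, with a median of 0.06. Over all genes 12.2% were higher and 11.5% lower, and with 17 genes these shares are not read as a result about activators. Dppa2, which activates Dux in mouse ES cells, changed by 0.58 (limma, adjusted p = 0.00547), the elongation factor subunit gene Nelfa, which is also among the 17 genes above, by 0.425 and the DNA demethylase gene Tet2 by 0.365. The transcription factor genes Tbx3 and Klf5 fell by 0.685 and 0.72 and Smad7 fell by 0.465. The calls of Tbx3 and Smad7 rested on probe sets that Affymetrix marks as able to detect other transcripts (suffix _x_at or _s_at, called cross-hybridizing), since without these the changes were 0.005 and -0.21, and that of Tet2 was 0.13 over all its probe sets.

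Of 53 measured repressors 11 rose, or 20.8%, 7 fell, or 13.2%, and 35 did not pass, with a median of -0.06, and these shares too are set against 12.2% and 11.5% over all genes. The largest rises were those of Myc at 1.12, of the nuclear receptor gene Nr0b1 at 0.995, of the corepressor gene Rcor1 at 0.835 and of the Polycomb gene Rnf2 at 0.80. Without cross-hybridizing probe sets the brightest probe set of Rcor1 changed by 0.315 and did not pass. Its further probe set 1454932_at changed by 0.86 (limma, adjusted p = 0.00225). Rnf2 changed by 0.38 over all its probe sets. Its probe set 1451519_at changed by 0.92 (limma, adjusted p = 0.00188), while 1448041_at, 1448042_s_at and 1448043_x_at did not pass. The largest falls were those of the chromatin assembly gene Chaf1b at -0.945, the histone demethylase gene Kdm5b at -0.49, the histone methyltransferase gene Ehmt2 at -0.46 and Uhrf1, which maintains DNA methylation, at -0.45. Chaf1b changed by -0.49 over all its probe sets. Loss of Chaf1b is known to raise the share of 2-cell-like cells in mouse ES cultures. Whether its lower level had any part in the changes of the 2-cell-like genes here was not tested.

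Telomere maintenance is the process with which Zscan4 and Tcstv are linked. Of its 29 measured genes 5 rose, or 17.2%, 6 fell, or 20.7%, and 18 did not pass, with a median of -0.035, against 12.2% higher and 11.5% lower over all genes. The shelterin genes Terf2 and Terf2ip rose by 0.41 and 0.50, the tankyrase gene Tnks by 0.51, Nbn by 0.43 and the telomerase inhibitor gene Pinx1 by 0.285. The telomerase reverse transcriptase gene Tert fell by 0.315 and the telomerase particle genes Nhp2 and Nop10 fell by 0.53 and 0.425. The CST complex genes Ctc1 and Stn1 fell by 0.375 and 0.30 and Mre11a fell by 0.355. Over all probe sets of a gene the changes of Tnks, Terf2ip, Tert and Stn1 were 0.11, 0.17, -0.215 and -0.105 and did not pass, and that of Terf2 was 0.24 and passed (limma, adjusted p = 0.0393).

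The higher level of Sp110 1456493_at was set beside its own family and beside interferon-stimulated genes. PML nuclear bodies are the protein assemblies in which Sp100 proteins reside. Of 12 measured genes of the Sp100 family and of these bodies, 1 rose, or 8.33%, and 4 fell, or 33.3%, with a median of -0.15. Over all genes 12.2% were higher and 11.5% lower, and with 12 genes these shares are not read as a result about the family. Aire fell by 1.555, Pml, the scaffold of these bodies, by 0.49, Trim24 by 0.395 and Mre11a by 0.355. The kinase gene Hipk2 rose by 0.395 on its brightest probe set and differed by -0.135 over all its probe sets. Sp100, the neighbour and relative of Sp110, read 4.04 and 4.13 on the control arrays and 3.89 and 4.0 after depletion.

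Of 46 measured interferon-stimulated genes 13 fell, or 28.3%, against 11.5% of all genes called lower, and 1 rose. The median was -0.12. The gene that rose was B2m, the light chain of class I molecules, at 0.575. The largest falls were those of Bst2, which tethers budding virus, at -1.55, Xaf1 at -1.05, Ifi35 at -0.89 and the interferon-induced GTPase gene Igtp at -0.755. Ifi35 changed by -0.44 without cross-hybridizing probe sets. On the same Zfp322a RNAi arrays Sp110 1456493_at was higher, while Sp110 1429563_x_at and 1429562_at differed by -0.015 and -0.155. A link of Sp110 with the interferon-stimulated genes in these cells was not tested.

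Genes next to the 5 on the chromosomes were compared as well. The 3 nearest genes with a probe set of their own on either side gave 24 genes (Tcstv3 had 0 such genes beyond it on chromosome 13). Of the 24, 11 rose, or 45.8%, 1 fell and 12 did not pass limma's test, with a median of 0.225. Over all genes 12.2% were higher and 11.5% lower, with a median of -0.04. Of the 11 rises, 5 lay in the chromosome 13 cluster of related copies described below. The count of rises was 7 of 20 without cross-hybridizing probe sets. Of the 24, AF067063, Gm20767 and BC147527 were also among the other 2-cell-like genes above.

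On chromosome 13, 5 of the 6 genes around Tcstv1 and Tcstv3 rose. D13Ertd608e changed by 0.56 from 8.42 and 8.34 to 8.99 and 8.89 (limma, adjusted p = 0.00723), and AF067063 changed by 0.575 from 6.38 and 6.5 to 7.04 and 6.99. Gm20767 changed by 0.465 from 11.72 and 11.59 to 12.15 and 12.09, and AF067061 by 0.325 from 13.09 and 13.10 to 13.42 and 13.42 (limma, adjusted p = 0.0292). BC147527 gave the change of 0.95 described above, and Gm46390 at -0.19 did not pass. These genes lie in a cluster of related copies, and how far their probe sets detect each other's RNA was not tested.

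Around the Zscan4 cluster on chromosome 7 the zinc finger genes Zik1 and Zfp606 changed by 1.09 and 0.925 and Gm45351 by 0.78, while Zfp551, Nlrp4b and 2900092C05Rik did not pass. Zfp606 differed by 0.28 over all its probe sets (limma, adjusted p = 0.0523). Around Zfp352 on chromosome 4, Tusc1 changed by 0.655 and the cell cycle inhibitor gene Cdkn2b by 0.47, whereas its close neighbour Cdkn2a fell by 0.895 (limma, adjusted p = 0.00183). Around Sp110 on chromosome 1, Cab39 changed by 0.33 and the other 5 did not pass.

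**Figure D5:**
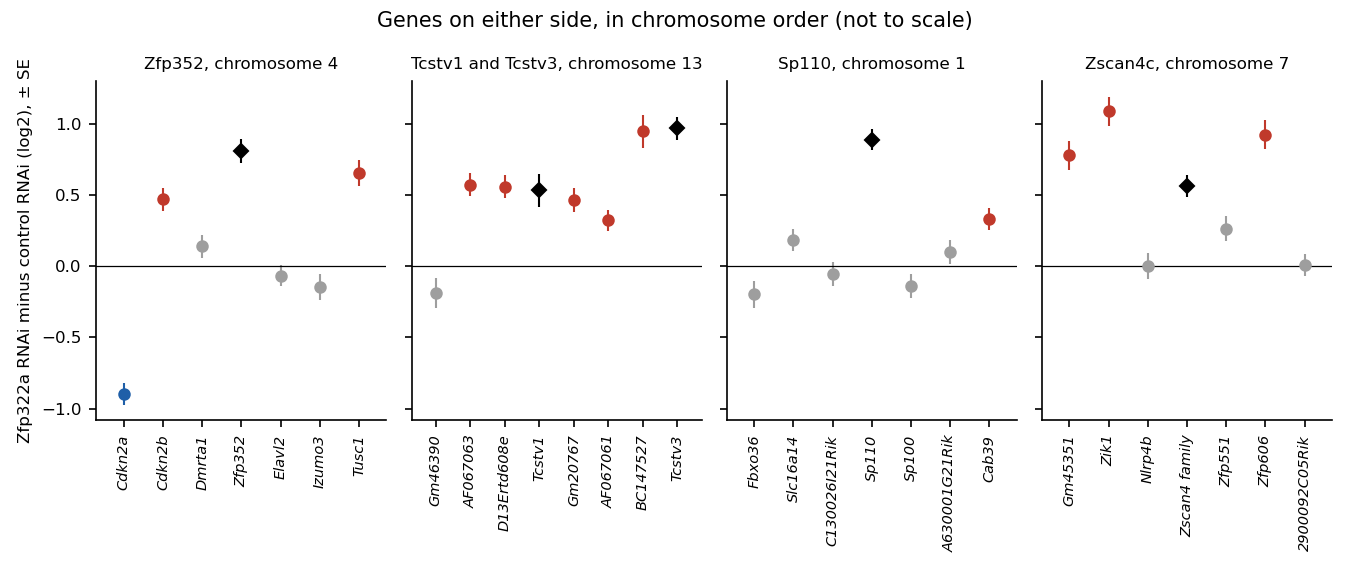
Log2 difference between Zfp322a RNAi and control RNAi with its SE (vertical axis) for the 3 nearest measured genes on either side of each of the 5 genes (before Tcstv3 only), in chromosome order and not to scale (diamonds, the 5 genes with Sp110 1456493_at and the shared Zscan4 probe set, without a test; coloured circles, neighbours that passed limma's test; grey circles, neighbours that did not). On chromosome 13 all neighbours but Gm46390 rose, and on chromosome 4 Cdkn2a fell by 0.895.

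The genes with the most similar profile over the 4 arrays were found by the root mean square distance of mean-centred log2 values. For Zfp352 these were Pdia4, Arl14ep and Zfp131, at distances of 0.005 to 0.013. For Tcstv3 they were Slc35b3, Bpnt1 and Stam, at 0.0179 to 0.0259, and for Tcstv1 Foxk1, Ocln and Acsl4, at 0.0109 to 0.0218. For Sp110 1456493_at they were Dgkh, Vldlr and Ska2, at 0.00866 to 0.0109, and for the Zscan4 probe set Rab33b, Tnrc6a and Atp2a2, at 0.00707 to 0.0112. With 4 arrays in 2 groups such likeness means a similar step between the groups and little else, and 0 of these genes were on the list of 2-cell-like genes.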

How the data were processed

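Total RNA of 4 E14 samples was labelled with biotin and hybridized to Affymetrix mouse arrays. The authors normalized the arrays with RMA and deposited log2 levels per probe set (settings not given in the sources used here), which were used unfiltered. Probe sets were named by the platform annotation, updated through Entrez IDs (34741 of 34945 with 1 symbol matched; 932 had several symbols and 9160 none). A model with group as its single term was fitted with limma 3.58.1 in R 4.3.3 to all 45037 probe sets, two-sided, with 2 residual degrees of freedom and Benjamini-Hochberg adjustment at 0.05. Errors of changes are limma's SE. An exact permutation test of 2 against 2 arrays cannot go below p = 0.333. A gene of a list was represented by its brightest probe set with 1 symbol.

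The 5 genes and all lists were chosen with earlier results of these data known. Genes named were Zfp322a, all probe sets of the 5 genes, all genes of a list past the threshold where 12 or fewer passed and otherwise the 4 largest rises and falls, the Zscan4, Tcstv, Dux, Tdpoz and Usp17l genes, the 3 most similar profiles, neighbours past the threshold and 4 ES cell markers. The fit was tested on simulated data. It recovered 12 of 67 changes of 1.5-fold, 58 of 67 of 2-fold and 65 of 66 of 4-fold. Far fewer probe sets were changed there than were called in these data, so these counts do not give the share recovered here. Promoter windows (RefSeq, GRCm38.p6) were compared by local alignment. Alternatives changed the normalization, variance model, probe sets, block, arrays or fold rule, and the number of arrays limits the precision.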

Additional observations from a re-analysis of the deposited data

How the results depend on the processing

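The replicate numbers did not pair the arrays (r = 0.0561 between groups for the difference of replicate 1 and replicate 2, over 45037 probe sets, with 2 pairs). With the replicate block, or with any 1 of the 4 arrays left out, every count of calls fell to 0 in both directions, for all probe sets and for all 7 gene lists, since few residual degrees of freedom remain (13586 probe sets had an unadjusted p under 0.05 with the block, 10572 to 11509 without an array and 14717 with all arrays). For the 5 genes the direction of the 6 probe sets that were higher was kept without each array. By the 1.5-fold rule with no test 2104 probe sets were higher and 1190 lower, as were 10 higher of the other 2-cell-like genes, 0 higher activators, 7 higher and 1 lower repressors, 0 telomere genes in either direction, 0 higher and 1 lower of the Sp100 and PML genes, 0 higher and 6 lower interferon-stimulated genes and 5 higher neighbours. A mean-variance trend gave 18 higher and 15 lower repressors, 9 higher telomere genes and 2 higher interferon-stimulated genes. Without dim probe sets 5 activators and 2 interferon-stimulated genes were higher. Without cross-hybridizing probe sets 1 activator was lower and 7 neighbours were higher. When the probe sets of each gene were averaged, 11 repressors were lower, 0 Sp100 and PML genes higher and 2 interferon-stimulated genes higher, the latter also with 1 probe set a gene. Centring each array on its median raised all 8 probe sets of the 5 genes alike, which took Sp110 1456493_at to 0.92 and the Zscan4 probe set to 0.595, and averaging its probe sets moved Sp110 to 0.24. The cause of the other shifts was not tested. All probe sets were higher in 4774 and lower in 4266 cases in the main setting, and 5289 and 3625 after centring.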
